A study of Mus musculus with 2 samples.

Results

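Chromatin remodelling and histone modifying enzymes were examined in B cells that carry IgM and IgD on their surface, isolated from mouse spleens by flow cytometric sorting. The members were the genes whose symbol begins with Smarc, Chd, Brd, Kat, Hdac, Kmt, Kdm, Ezh or Dnmt and a family number or letter, without Hdac7 and Kdm5d. They were 60 of the 12393 genes that the array measured by a probe set naming 1 gene, with 104 probe sets among them. The series was designed to compare wild-type B cells with cells that lack serum response factor (SRF), a transcription factor of immediate early and cytoskeletal genes. Analysed here were 2 arrays of wild-type cells, replicates 1 and 2 in accession order, called array 1 and array 2 below, and their label states no genetic modification. SRF-deficient cells were not analysed here. Both are primary cells, and the labels do not give strain, age or sex, or whether the arrays came from separate mice. With 1 group there was no comparison to test, and differences between the arrays describe the spread of 2 samples, which may be technical. By the signals of Xist and Eif2s3y, given below, the arrays also came from animals of different sex.

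Chromatin remodellers of the Smarc and Chd families use ATP to slide, evict or exchange nucleosomes. Histone acetyltransferases (Kat) and methyltransferases (Kmt, Ezh) write marks, deacetylases (Hdac) and demethylases (Kdm) remove them, bromodomain proteins (Brd) bind acetylated lysines, and Dnmt enzymes methylate cytosine in CpG dinucleotides. In the B cell lineage these enzymes are best known for their part in commitment, in the germinal centre reaction and in lymphoma, where Ezh2 and Kmt2d are recurrently mutated. Resting recirculating B cells, the main population with surface IgM and IgD in the spleen, have compact nuclei and divide little.

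Each value is a MAS5 signal, an intensity in arbitrary units that condenses the probes of a probe set. Since probes bind their targets with unequal strength, no signal was set against that of another probe set as a level of RNA. In a bulk sample fewer cells of a type and less RNA per cell cannot be told apart. A floor was set on each array at the 90th percentile of the signals of 51 organ-restricted genes (82 probe sets), such as those of liver, brain or testis. It was 177 on array 1 and 99.8 on array 2, and by construction about 10% of those probe sets lie above it. A gene counted as above both floors if 1 of its probe sets exceeded the floor of each array. Where a gene had several probe sets, the one with the highest mean log2 signal, called its leading probe set, gave its value.

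The promoters of 5 members are shown first, since the results below turn on these genes or on the study's factor. They are RefSeq windows on GRCm38.p6, from 250 bases before to 50 bases after the start of the gene, written 5′ to 3′ on the gene's strand. In the first 4, capitals mark each CpG dinucleotide, the target of the Dnmt enzymes. Ezh1 and Ezh2, the alternative catalytic subunits of Polycomb repressive complex 2, lay on different sides of the floor on array 1. Smarcd2 and Kmt2c differed over 2-fold between the arrays. In the window of Kdm5c, capitals mark a match to the CArG box, the element that SRF binds. The windows lie at chr11:101226414-101226713 on the minus strand for Ezh1, chr6:47594981-47595280 on the minus strand for Ezh2, chr11:106267583-106267882 on the minus strand for Smarcd2, chr5:25498734-25499033 on the minus strand for Kmt2c and chrX:152232977-152233276 on the plus strand for Kdm5c.
Ezh1: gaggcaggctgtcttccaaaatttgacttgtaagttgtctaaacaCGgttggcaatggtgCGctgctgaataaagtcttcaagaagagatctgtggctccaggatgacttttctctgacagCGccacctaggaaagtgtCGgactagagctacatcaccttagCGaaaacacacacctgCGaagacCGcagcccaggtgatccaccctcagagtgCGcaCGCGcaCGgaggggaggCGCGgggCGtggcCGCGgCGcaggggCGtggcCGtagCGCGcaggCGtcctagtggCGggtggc
Ezh2: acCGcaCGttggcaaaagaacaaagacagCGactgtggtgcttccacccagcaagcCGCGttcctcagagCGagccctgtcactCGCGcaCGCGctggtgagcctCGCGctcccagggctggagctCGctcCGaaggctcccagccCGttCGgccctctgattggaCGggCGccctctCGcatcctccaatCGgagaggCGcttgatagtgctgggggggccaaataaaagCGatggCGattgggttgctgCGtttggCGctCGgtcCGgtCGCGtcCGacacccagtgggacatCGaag
Smarcd2: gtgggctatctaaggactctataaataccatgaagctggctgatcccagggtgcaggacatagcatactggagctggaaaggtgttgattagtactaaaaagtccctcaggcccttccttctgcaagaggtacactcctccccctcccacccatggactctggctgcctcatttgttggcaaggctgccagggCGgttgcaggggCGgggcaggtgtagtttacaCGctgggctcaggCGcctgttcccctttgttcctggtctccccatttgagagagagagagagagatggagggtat
Kmt2c: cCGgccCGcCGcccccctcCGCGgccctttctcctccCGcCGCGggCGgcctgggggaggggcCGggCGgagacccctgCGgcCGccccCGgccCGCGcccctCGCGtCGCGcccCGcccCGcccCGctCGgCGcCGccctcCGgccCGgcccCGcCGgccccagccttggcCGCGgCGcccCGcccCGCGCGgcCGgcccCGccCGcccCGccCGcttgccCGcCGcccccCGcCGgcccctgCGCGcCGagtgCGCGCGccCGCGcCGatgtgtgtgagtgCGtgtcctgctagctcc
Kdm5c: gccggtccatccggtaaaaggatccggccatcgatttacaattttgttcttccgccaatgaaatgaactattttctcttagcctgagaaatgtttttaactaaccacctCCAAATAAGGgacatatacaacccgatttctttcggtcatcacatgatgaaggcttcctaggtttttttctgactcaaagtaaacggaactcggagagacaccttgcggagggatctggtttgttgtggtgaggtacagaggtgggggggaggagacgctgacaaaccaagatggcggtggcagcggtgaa

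The 300 bases held 23 CpG dinucleotides for Ezh1, 31 for Ezh2, 4 for Smarcd2, 56 for Kmt2c and 13 for Kdm5c. RefSeq windows were found for 49 of the 60 members, 71 windows in all, since some genes have several starts. Their median was 24 CpG dinucleotides (quartiles 14 and 33), beside 17 over the 12566 windows of all genes of the array with a window. Windows of members above both floors had a median of 25.5 (40 windows), and those of the other members 20 (31 windows). Smarcd2 was among the members above the floor with few CpG dinucleotides, as was 1 of the 3 windows of Dnmt1, with 2. The CArG box, searched on 1 strand because it reads alike on both, was matched in 1 of 71 member windows, or 1.41%, beside 1.47% of the windows of all genes of the array. The match in Kdm5c began 141 bases before the start. A match is a run of letters and was not tested as a binding site.

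**Figure D1:**
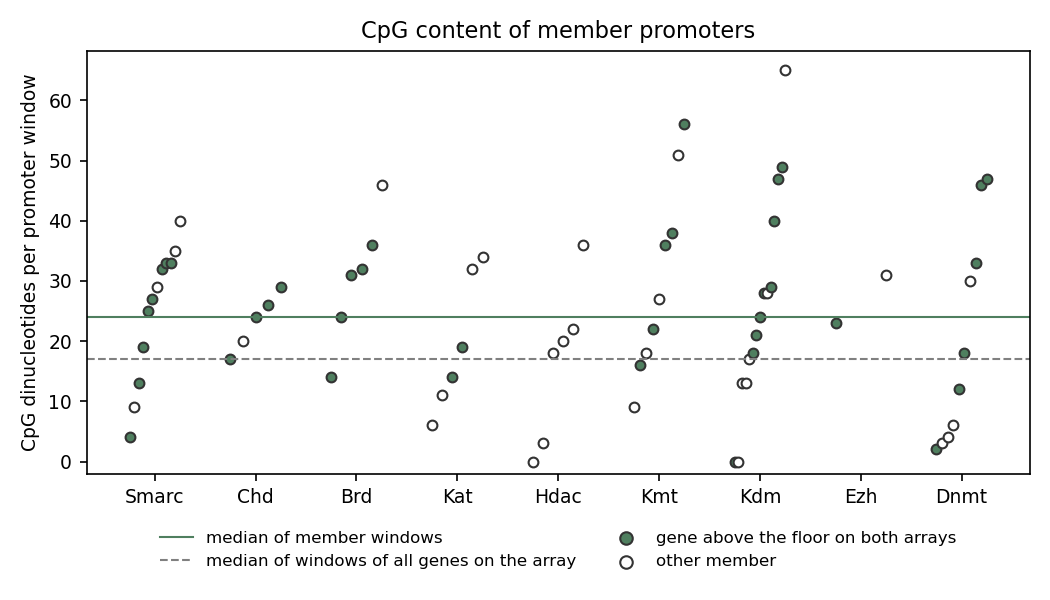
CpG dinucleotides (vertical axis, count per 300-base promoter window) for 71 RefSeq windows of 49 members, by name family. Each point is 1 window and a gene can have several, filled where the gene was above both floors. The solid line is the median of member windows, 24, and the dashed line the median over all genes of the array, 17.

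Most of the chromatin enzyme genes gave signal on both arrays. Of 60 members, 34 were above both floors, or 56.7%, beside 28.4% of all 12393 genes (3519). A further 11 were above it on array 2 only, 2 on array 1 only, 1 on each array by a different probe set and 12 on neither. Over all 12393 genes these counts were 1879, 911, 157 and 5927. Of the 29 members with 1 probe set, 12 were above the floor, or 41.4%, beside 19.8% of all genes with 1 probe set. Of the 31 members with several, 22 were, or 71.0%, beside 41.3% of such genes. The median signal of the members was 223 on array 1 and 256 on array 2, against 126 and 82.2 over all genes. These medians are intensities over many probe sets and were not read as levels of RNA. Members above the floor ran from 206 to 928 on array 1 and from 113 to 2457 on array 2, by the leading probe set. The floor set the count, with 24 members (40.0%) against 19.5% of all genes above a 95th-percentile floor, and 45 (75.0%) against 43.0% above the array median.

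**Figure D2:**
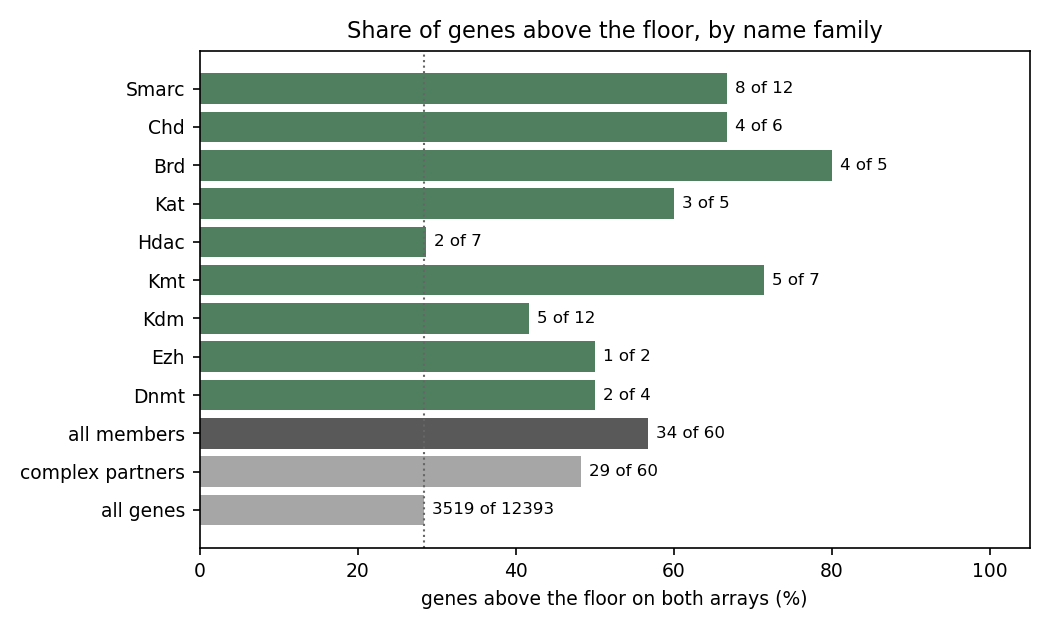
Share of genes above both floors (horizontal axis, %) for each name family, for all 60 members, for 60 other genes of the same complexes and for all 12393 genes. The numbers beside the bars are counts, and the dotted line is the share of all genes, 28.4%. Hdac is the family nearest to that line, with 2 of 7 genes.

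The sorted cells carried the markers of the label. All 9 measured B cell markers were above both floors. Cd22 gave 4313 and 5302 on arrays 1 and 2, and Ms4a1, which encodes CD20, gave 3394 and 6347. Of the 9, 1 was over 2-fold higher on array 1, namely Cd79a with 2930.9 and 191.8. Another 2 were over 2-fold higher on array 2, Cd37 with 571.0 and 1631.5 and Cr2 with 940.3 and 2274.6. The counts above both floors were 1 of 7 for T cells, 0 of 4 for NK cells and 2 of 6 for monocytes and macrophages. They were 2 of 5 for neutrophils, 0 of 3 for erythroid cells and 0 of 3 for platelets. Those above both floors were Zap70, a kinase of T cell receptor signalling, with 476 and 268, the macrophage genes Csf1r with 286 and 249 and Lyz2 with 291 and 178, and the neutrophil granule and cytosol genes Ngp with 327 and 187 and S100a9 with 205 and 229.9. The T cell receptor chain genes Cd3d, Cd3e and Cd3g were below the floor on both arrays, at no more than 56.1 on array 1 and 16.1 on array 2. Of 9 genes of dividing cells 0 were above the floor on either array, with Mki67 at 40.4 and 3.30 and Top2a at 22.7 and 30.9. The highest of the 9 were Plk1 on array 1, at 162.7 and near the floor, and Ccnb2 on array 2, at 72.8. Srf itself gave 389 on array 1 and 254 on array 2. The arrays also differed in signs of RNA quality and sex. The 3′ to 5′ signal ratio of the Actb control was 3.57 on array 1 and 8.15 on array 2. That of the Gapdh control was 1.31 and 8.26. Its 5′ signal on array 2, 13.5, was below the floor, and the floor took its place in the ratio. Xist, which is expressed from the inactive X chromosome of females, gave 740.4 and 15.3, and the Y-linked Eif2s3y 3.40 and 249. By these 2 genes array 1 came from a female source and array 2 from a male one, so not from the same animal. Sex and RNA quality both differed between the arrays and cannot be told apart here. Their part in the differences below was not tested.

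The SWI/SNF (BAF) complex moves nucleosomes through 1 of 2 alternative ATPases. Smarca4, which encodes the ATPase BRG1, gave 360 on array 1 and 261 on array 2, a mean of 311 ± 69.7 (SD, n = 2). Its second probe set was also above the floor, with 297 and 202, and both put array 1 ahead by a similar ratio. Smarca2, which encodes the alternative ATPase BRM, gave 115 and 306, exceeding the floor of array 2 only. Its other probe set gave 146 and 130. The paralogues thus differed in their side of the floor on array 1 alone.

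Genes of the invariant subunits were above both floors. Smarcb1, the SNF5 subunit, gave 365 and 261, a mean of 313 ± 73.5, and Smarce1, an HMG-box subunit, 464.5 and 340.0, a mean of 402 ± 88.0 (SD, n = 2). Smarcc1, a scaffold subunit, gave 304 and 562. All 3 stayed within 2-fold between the arrays. The second probe set gave 108.3 and 177.0 for Smarcb1 and 52.4 and 68.8 for Smarcc1, below the floor of array 1 at least. That of Smarce1, above both floors, gave 229.8 and 273.3. For Smarcb1 and Smarce1 it put array 2 ahead, unlike the leading probe set. The Smarcd genes encode interchangeable subunits of which a complex takes 1 kind. Smarcd1 gave 149 and 141, exceeding the floor of array 2 only, and Smarcd3, known from muscle, gave 7.0 and 30.5 and was above it on neither.

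Smarcd2, known for its role in granulocyte development, had the largest difference of any member above the floor. Its signal was 427 on array 1 and 2457 on array 2 by the leading probe set, a mean of 1442 ± 1435 (SD, n = 2), or 5.76-fold. Its second probe set above the floor went the other way, with 338 on array 1 and 210.3 on array 2. The third gave 168.5 and 116.5. The difference therefore rested on 1 of 3 probe sets of the gene.

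The ISWI remodellers slide nucleosomes into regular arrays. Smarca5, which encodes the ATPase SNF2H, gave 449 and 562 on arrays 1 and 2, a mean of 505 ± 79.5 (SD, n = 2). Its other probe sets gave 124.2 and 98.9, and 130.0 and 229.7, below the floor of array 1. Smarca1, the X-linked paralogue of Smarca5, gave 124 and 48.0 and was below the floor on both. Smarcad1, a remodeller that maintains heterochromatin and acts in DNA end resection, was 2.48-fold higher on array 1, with 341 against 138. Smarcal1, an annealing helicase of stalled replication forks, was 2.24-fold higher there, with 252 against 113. In each of these genes the other probe set pointed the other way, with 132 and 202 for Smarcad1 and 17.0 and 48.6 for Smarcal1, and lay below the floor on array 1 at least. In the Smarc family 8 of 12 genes were above both floors, or 66.7%, beside 28.4% of all genes.

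Of 6 chromodomain helicase genes 4 were above both floors, or 66.7%, beside 28.4% of all genes. Chd4, the ATPase of the NuRD deacetylase complex, gave 343 and 316, a mean of 330 ± 19.0 (SD, n = 2). Its second probe set above the floor gave 421 and 241, while the third gave 35.4 on array 1 and 339 on array 2. Chd8, whose product binds beta-catenin, gave 928 and 842, a mean of 885 ± 61.0 (SD, n = 2). Chd1, a remodeller that binds methylated lysine 4 of histone H3 at active genes, gave 288 and 173. Its other probe sets spread from 10.5 and 143 to 49.3 and 9.0, and neither was above the floor on both. Chd1l, a remodeller activated by poly(ADP-ribose) at DNA damage, gave 274 and 404. Chd6 with 111 and 227, and Chd7, mutated in CHARGE syndrome, with 168.0 and 118, were above the floor on array 2 only.

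Bromodomain genes were above both floors in 4 of 5 cases, or 80.0%, beside 28.4% of all genes. Brd2, a BET protein that binds acetylated histone H4, gave 742 and 1268 on arrays 1 and 2, a mean of 1005 ± 371 (SD, n = 2). Its other probe set gave 214 and 55.9. Brd3, another BET gene, had 3 probe sets and was above the floor on array 2 only, with 114 and 179 by the leading probe set. The testis-specific BET gene Brdt, outside the name rule, gave 90.2 and 12.1 and was below the floor on both. Brd1, a scaffold of acetyltransferase complexes, gave 345 and 334, a mean of 339 ± 7.71 (SD, n = 2). Brd7, a subunit of the polybromo form of SWI/SNF, gave 217 and 238, and Brd8, a subunit of the TIP60 complex, 524 and 750.1. None of the 4 differed over 2-fold by the leading probe set. The other probe sets of Brd8 were below the floor of array 1.

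Among histone acetyltransferases, Kat6a, which encodes MOZ, gave 526 and 430.5, a mean of 478 ± 67.8 (SD, n = 2). Its paralogue Kat6b gave 112 and 72.0 and was below the floor on both arrays. Kat7, which encodes HBO1, gave 357 and 285 by the leading probe set and 187 and 540.5 by its other, both above the floor. Kat2a, which encodes GCN5, gave 206 and 168 by the leading probe set. Its other probe sets gave 388 and 24.8, and 165 and 44.5, below the floor on array 2. Kat2b, which encodes PCAF, showed the widest disagreement of the members, with 64.9 and 359 by 1 probe set and 120.4 and 5.40 by the other. It was above the floor on array 2 only, by the first of these. In the Kat family 3 of 5 genes were above both floors, or 60.0%, beside 28.4% of all genes.

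Of 7 deacetylase genes 2 were above both floors, or 28.6%, beside 28.4% of all genes. Of the 6 with 1 probe set the same 2 were, or 33.3%, beside 19.8% of all genes with 1 probe set. Both belong to class I, the nuclear enzymes of the NuRD, Sin3 and NCoR corepressor complexes. Hdac1 gave 428 on array 1 and 661 on array 2, a mean of 545 ± 165 (SD, n = 2). Hdac3, the NCoR enzyme, was 2.55-fold higher on array 1, with 399 against 156, by its only probe set, which ends in _s_at. Without probe sets ending in _x_at or _s_at, 1 of 6 Hdac genes was above both floors, beside 26.3% of all genes. Hdac2, which forms heterodimers with Hdac1, gave 3.80 and 41.9 and was below the floor on both arrays by its only probe set. The class II genes Hdac5, Hdac6 and Hdac9 were not above both floors. Hdac5 gave 217 and 58.7, above it on array 1 only, while Hdac6, a cytoplasmic tubulin deacetylase, with 51.9 and 11.2, and Hdac9, with 11.7 and 86.2, were above it on neither. Hdac11, the class IV enzyme, gave 185 and 88.4, above the floor on array 1 only.

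Lysine methyltransferase genes were above both floors in 5 of 7 cases, or 71.4%, beside 28.4% of all genes. Kmt2a, which encodes MLL1, a histone H3 lysine 4 methyltransferase, gave 574 and 559, a mean of 566 ± 10.8 (SD, n = 2). Its second probe set was above the floor too, with 325 and 259.9. Kmt2c, which encodes a methyltransferase of enhancers, was 2.96-fold higher on array 2, with 410.1 on array 1 and 1213 on array 2 by its only probe set. Kmt2e, a family member known for binding methylated lysine 4, was 3.38-fold higher on array 2, with 666 and 2250.4. A second Kmt2e probe set above both floors went the same way, with 358 and 730.3. Of the members over 2-fold apart, Smarcd2, Dnmt1 and Kmt2e had several probe sets above both floors, and those of Kmt2e alone went the same way. Kmt2d, the enhancer methyltransferase mutated in lymphoma, gave 64.2 and 36.1 and was below the floor on both.

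The Kmt5 enzymes methylate lysine 20 of histone H4. Kmt5b gave 322 on each array, a mean of 322.1 ± 0.42 (SD, n = 2), and 341 and 239.9 by a second probe set above the floor. Kmt5c gave 248 and 129.5, above both floors. Kmt5a, which adds the first methyl group and is known to be regulated through the cell cycle, gave 228 and 98.2 by the leading probe set and 122 and 119 by its other. It passed the floor of each array by a different probe set.

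Of 12 lysine demethylase genes 5 were above both floors, or 41.7%, beside 28.4% of all genes. With a 95th-percentile floor the count was 2 of 12, beside 19.5% of all genes. Kdm1a, which encodes LSD1, gave 236 and 419.5, and by its other probe set 19.5 and 189. Kdm2b, which binds unmethylated CpG and recruits Polycomb, gave 214 and 385. The histone H3 lysine 9 demethylase genes Kdm3a and Kdm3b gave 321 and 394, and 436.5 and 346. Their means were 357 ± 51.1 and 391 ± 64.2 (SD, n = 2). None of the 5 was over 2-fold apart by the leading probe set.

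Kdm6a and Kdm5c are X-linked genes known to escape X inactivation in females. Kdm6a, a histone H3 lysine 27 demethylase, gave 218 and 294 by the leading probe set, above both floors. Its other probe set gave 133 and 5.20, below the floors of both arrays. Kdm5c, a histone H3 lysine 4 demethylase, gave 175.5 and 56.6 by the leading probe set and 14.7 and 8.80 by its other. It was above the floor on neither array, and its 175.5 lay just under the floor of 177 on array 1, the array with Xist signal. By the leading probe set Kdm6a was the higher on array 2. Whether sex had a part in the signals of either gene was not tested. The autosomal paralogues of Kdm5c, namely Kdm5a with 92.6 and 252 and Kdm5b with 116 and 361, were above the floor on array 2 only. Kdm4c, with 104 and 137, was likewise above it on array 2 only. Kdm4b with 36.7 and 70.1, Kdm7a with 116 and 55.3 and Kdm8 with 113 and 32.3 were above it on neither.

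Polycomb repressive complex 2 methylates lysine 27 of histone H3 through Ezh1 or Ezh2. Ezh1, the form known from cells that do not divide, gave 268 and 289.9 on arrays 1 and 2, a mean of 279 ± 15.7 (SD, n = 2). Its other probe set gave 205 and 23.8, below the floor on array 2. Ezh2, the form known from proliferating and germinal centre B cells, gave 10.2 on array 1 and 199 on array 2 by its only probe set. Ezh1 was thus above both floors and Ezh2 on array 2 only. The measured genes of dividing cells were below the floor on both arrays. Whether dividing cells had a part in the Ezh2 signal was not tested.

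Of 4 DNA methyltransferase genes 2 were above both floors. Dnmt1, the maintenance enzyme, was 2.83-fold higher on array 2 by the leading probe set, with 214 on array 1 and 606 on array 2. That probe set is of the _x_at class, which can cross-hybridize. The other, also above the floor, put array 1 ahead, with 214 against 121.0. Dnmt3a, a de novo enzyme, gave 234 and 274.5 by the leading probe set, a mean of 254 ± 28.6 (SD, n = 2), and its other 4 probe sets were below the floor of array 1. Dnmt3b gave 151 and 88.6 by the leading probe set and 11.5 and 120.1 by its other, which was above the floor of array 2. Dnmt3l, a cofactor with no catalytic activity known from germ cells, gave 87.6 and 42.4 and was below the floor on both.

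**Figure D3:**
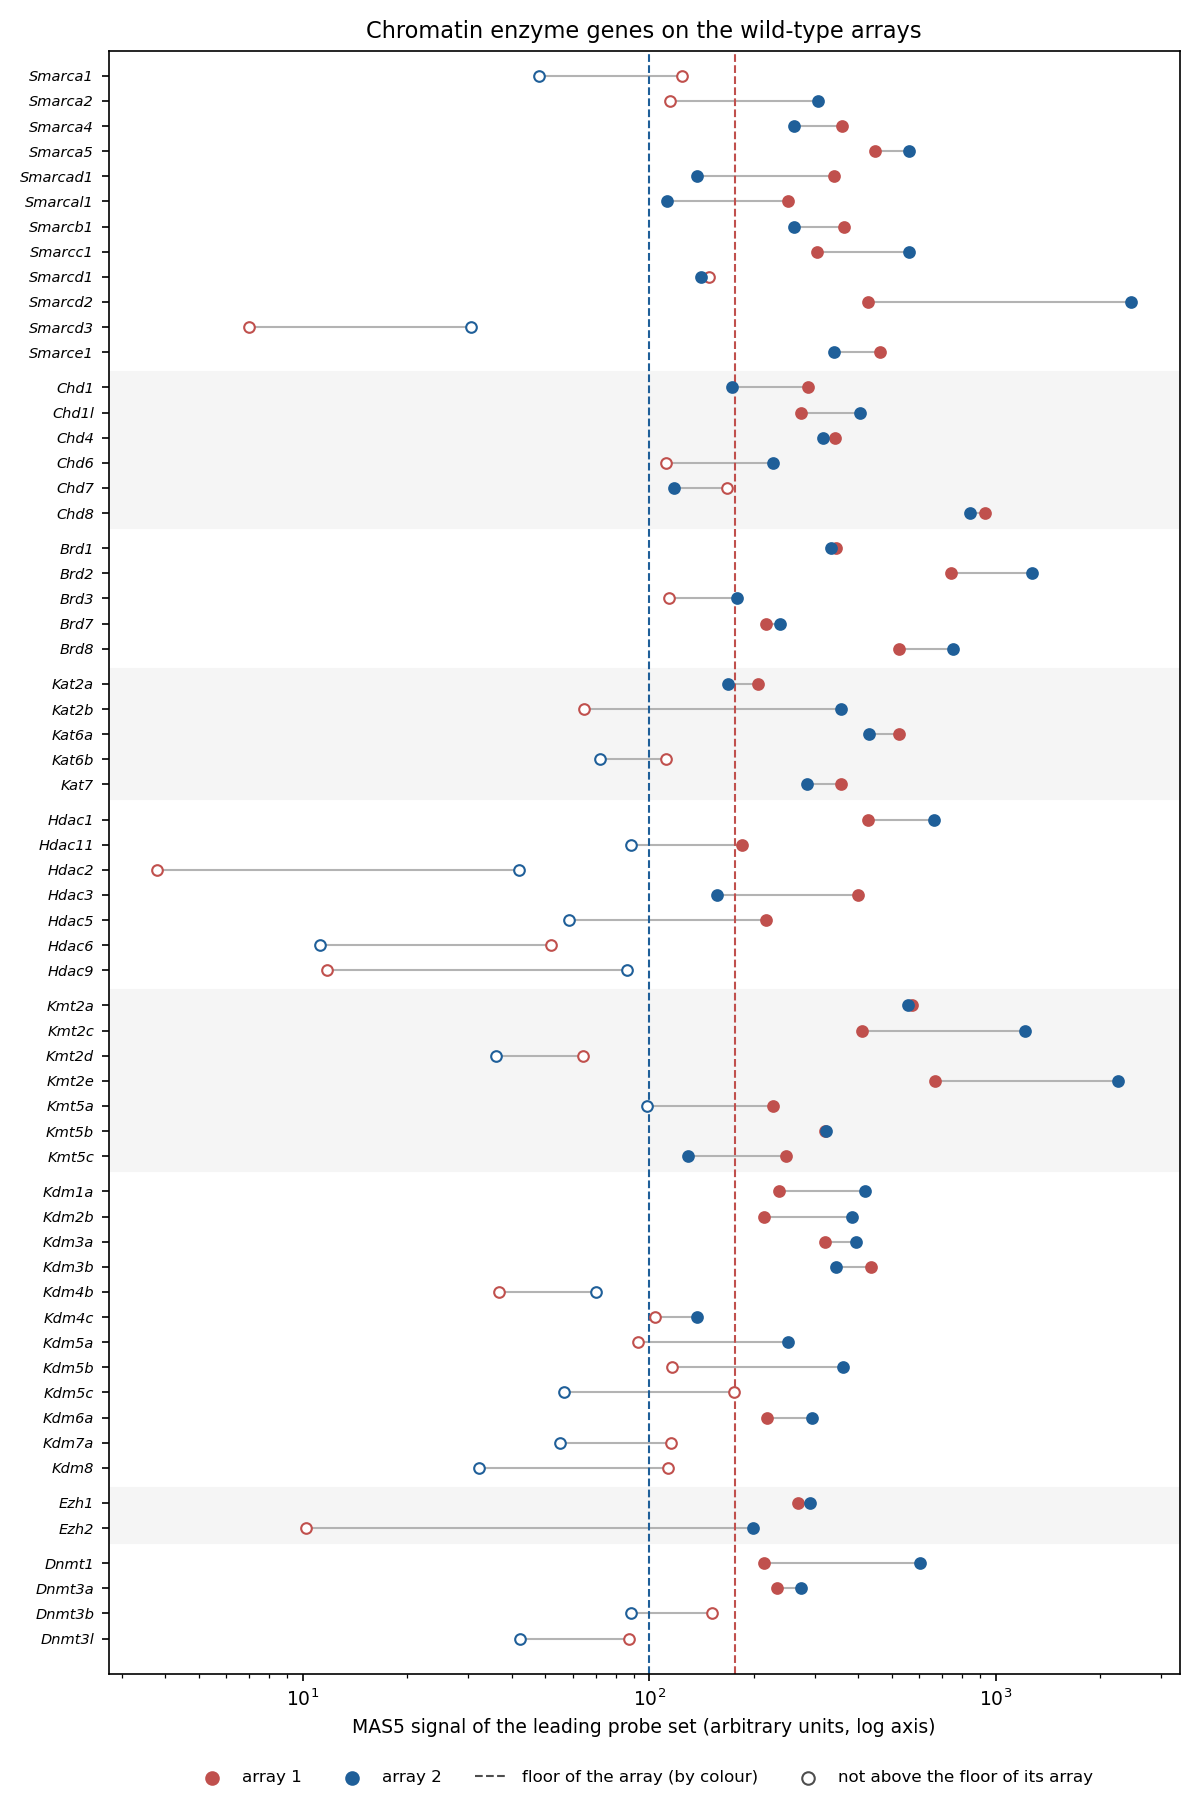
MAS5 signal (horizontal log axis, arbitrary units) of the 60 members on array 1 (red) and array 2 (blue), by the leading probe set of each gene and grouped by family. Dashed lines are the floors, 177 and 99.8, and open points are not above the floor of their array. Smarcd2, Kmt2e and Kmt2c lie farthest apart among genes above both floors, and Ezh2 and Hdac2 lie far below the floor of array 1.

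Between the arrays, the members above the floor varied about as much as other genes. Of the 34 members, 27 differed by less than 2-fold, 3 were over 2-fold higher on array 1, and for 4 array 2 was higher by over 2-fold. Those higher on array 1 were Hdac3, Smarcad1 and Smarcal1, or 8.82%, beside 11.2% of the 3468 genes compared. Those higher on array 2 were Smarcd2, Kmt2e, Kmt2c and Dnmt1, or 11.8%, beside 14.6%. With each array centred on its median the counts became 0 and 12, or 0% and 35.3%, beside 2.10% and 35.8% of all genes compared, where the median of all genes shifted to -0.65 on the log2 scale. The median difference, array 1 minus array 2, was -0.06 over the members and -0.02 over all genes compared. The pooled SD of log2 signal was 0.61 over the 43 member probe sets above both floors, or 1.52-fold, and 0.64 over all 4643 such probe sets, or 1.56-fold. By family the median difference ran from 0.46 for Smarc (8 genes) to -0.86 for Dnmt (2 genes). The Dnmt value depended on the _x_at probe set of Dnmt1, at -1.50, while its other probe set above both floors gave 0.82.

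The probe sets of a member often disagreed. Of 31 members with several, 6 had all of them above both floors, or 19.4%, beside 8.25% of 4956 genes with several. In 16 members some were above, or 51.6%, beside 33.1% of those genes. In 9 members none was, beside 2908 of the 4956 genes. The 6 with all above were Dnmt1, Kat7, Kmt2a, Kmt2e, Smarca4 and Smarce1. In 23 of the 31, or 74.2%, the probe sets differed in direction between the arrays, beside 57.8% of 4956 genes with several. Among the 9 members with several probe sets above both floors, 5 had opposite directions, or 55.6%, beside 49.9% of 816 genes. The differences of 1 member's probe sets spanned a median of 2.40 on the log2 scale, beside 2.04 over all genes with several. They spanned 0.09 for Smarca4 and 0.28 for Kmt2a, and 6.94 for Kat2b and 6.22 for Chd1.

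**Figure D4:**
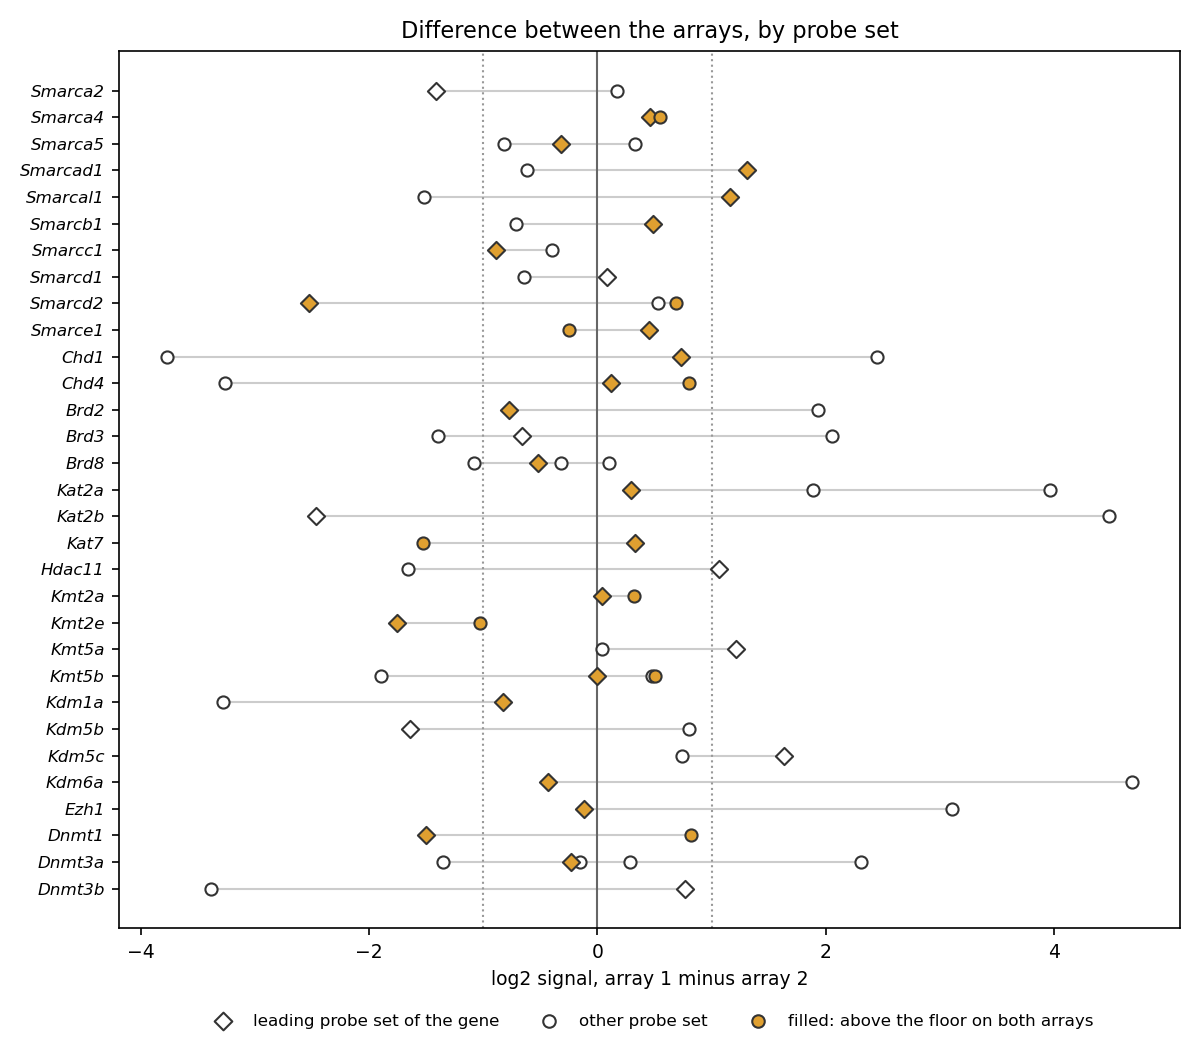
Log2 signal of array 1 minus array 2 (horizontal axis) for each probe set of the 31 members with several. Diamonds are the leading probe sets, circles the others, and filled symbols are above both floors. The dotted lines mark 2-fold. The probe sets of Smarca4 lie at 0.46 and 0.55 and those of Kmt2a at 0.04 and 0.32, while Kat2b, Chd1 and Kdm6a spread most widely.

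Partners of these enzymes in the same complexes and enzyme classes, chosen as a list outside the name rule, gave a similar count. Of 60 measured partners 29 were above both floors, or 48.3%, beside 28.4% of all genes. They included the SWI/SNF subunits Arid1a, Arid2, Pbrm1, Actl6a, Dpf2 and Ss18, the NuRD subunits Mta3, Mbd2, Gatad2a, Gatad2b, Rbbp4 and Rbbp7, and the Polycomb subunits Eed, Suz12, Jarid2 and Mtf2. Of the 29, 6 were over 2-fold higher on array 2, or 20.7%, beside 14.6% of all genes, and 1 was higher on array 1, or 3.45%, beside 11.2%. Rbbp4, a histone-binding subunit shared by NuRD and Polycomb complexes, gave 624 on array 1 and 2668 on array 2, and its paralogue Rbbp7 609.9 and 2002.5, each by a probe set of a class that can cross-hybridize. Without that class their log2 differences were -0.22 and -0.70, against -2.10 and -1.72. Rbbp4 was above both floors by the probe set of that class alone. Its other probe sets gave 138.8 and 161.9, below the floor of array 1, and 235.1 and 81.9, below that of array 2. The -0.22 came from the former. The other partners over 2-fold higher on array 2 included Eed, the Polycomb subunit that binds methylated lysine 27, with 319 and 714. The rest were Sin3b with 316 and 693, Ss18 with 517 and 1058, and Tbl1xr1, an NCoR subunit, with 199.9 and 447. Gatad2a, a NuRD subunit, was 4.42-fold higher on array 1, with 580.3 against 131. Its other probe set above the floor gave 277.5 and 207. Partners below the floor on both arrays included Uhrf1, which guides Dnmt1 to newly replicated DNA, and Suv39h2, a histone H3 lysine 9 methyltransferase.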

How the data were processed

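Biotin-labelled cRNA from RNA of 2 wild-type samples was hybridised to 1 array each, per the labels' protocols. The authors deposited linear signal intensities, made with MAS5 per the submitters' processing notes. The version is not given in the sources used here. With 2% of values trimmed from either end, array 1 averaged 150.0 and array 2 150.1, so the deposited columns share a scaling target. Precision is limited by having 2 arrays.

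Controls made up 64 of 22690 probe sets and were left out. Of the others, 20380 named 1 gene in the platform annotation, 691 named several and 1555 were unnamed here, and only the first were used. A difference is the log2 signal of array 1 minus that of array 2. For 51 genes above the floor the leading probe set was not above it, and these were left out of differences. Medians, counts and quantile normalization were computed with Python 3.11.15, numpy 2.4.6 and pandas 2.3.3, and the code was run on simulated data. Those data had 1 probe set per gene and less noise than these arrays. They check the code and say nothing of the reliability of the counts. No p-value was computed.

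Every member is named with its side of the floor. Values are given for paralogue sets, for members and partners over 2-fold apart, and for further members chosen after their values were seen. The members and lists were chosen with earlier results of these data known. Alternatives were other floors, scalings, a pseudocount of 32, probe set classes and gene summaries.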

Additional observations from a re-analysis of the deposited data

How the results depend on the processing

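The count of members above the floor, 34, was 37 on array 1 alone (61.7%, beside 37.0% of all genes) and 46 on array 2 alone (76.7%, beside 44.8%). It was 23 where a gene's value was the mean over all its probe sets (38.3%, beside 19.3%). The 3 members over 2-fold higher on array 1 became 1 with a 95th-percentile floor (4.17%, beside 7.95% of all genes compared) and 5 with the array median as the floor (11.1%, beside 14.4%). They became 12 with no floor (20%, beside 33.3%), 0 with median centring (beside 2.10%) and 1 with the mean over all probe sets (4.35%, beside 11.2%). The 4 over 2-fold higher on array 2 became 7 with the array median as the floor (15.6%, beside 12.9%), 13 with no floor (21.7%, beside 18.4%) and 12 with median centring (35.3%, beside 35.8%). They became 2 with the mean over all probe sets (8.70%, beside 9.08%) or over those above the floor (5.88%, beside 10.3%). A floor without the probe sets of Mbp, whose locus is also transcribed in lymphoid cells, gave 36 members above it (60.0%, beside 29.6%), with 5 and 4 over 2-fold higher on arrays 1 and 2 (13.9% and 11.1%, beside 13.9% and 14.1%). This alternative was chosen after seeing the data. The median difference of the members lay between -0.12 and 0.02 in all settings but median centring, where it was -0.69 beside -0.65 over all genes. Without probe sets ending in _x_at, or also without those ending in _s_at, the log2 difference of Dnmt1 turned to 0.82. The mean over all probe sets turned Smarcal1 to -0.18, and leaving out both classes turned Tbl1xr1 to 0.52. The cause was not tested, beyond the change of probe set. Of the 7 members over 2-fold apart, 4 remained so with median centring and 3 with the mean over all probe sets. No paired analysis was possible because the arrays form 1 group. Many members lay close to the floor, and signal over background limits what can be said of those below it.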
